A study of Mus musculus with 20 samples.

Results

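The 3 clones of SIMS cells, a mouse salivary gland line, in which Zcchc8 was knocked out with CRISPR/Cas9 were compared with SIMS cells in which Btbd7 was knocked out by the same method. The comparison used 16 of the 20 libraries of the series: 4 libraries of Btbd7 KO and 4 of each of 3 Zcchc8 KO clones, called clones 1, 2 and 3. No library of unedited cells entered any value given here. The libraries were chosen by genotype and clone in the labels, and each clone carried the same weight in the mean. All cells grew in DMEM with 10% fetal bovine serum, and total RNA was made into stranded libraries with an Illumina TruSeq kit, per the labels' protocols. The series names Btbd7 KO as its negative control. Each Zcchc8 KO group is 1 clone, the labels do not say whether the Btbd7 KO line is a single clone, and there is 1 such line. An effect of editing Btbd7, a trait of that line and an effect of losing Zcchc8 therefore cannot be told apart where all clones differ from it. Nothing in the labels says that the 4 libraries of a group came from separate cultures, so the p-values measure the spread between these libraries, which may be technical.

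ZCCHC8 joins the RNA-binding protein RBM7 to the helicase MTREX, and the 3 proteins form NEXT, the nuclear exosome targeting complex. NEXT hands short, unprocessed nuclear RNAs to the RNA exosome, a multi-subunit 3′ to 5′ ribonuclease. Among its known substrates are promoter upstream transcripts (PROMPTs), which arise on the strand opposite to a gene just before its start, and unprocessed ends of small nuclear and nucleolar RNAs. BTBD7 is a BTB-domain protein known from the branching of the embryonic salivary gland. The question taken up here is which protein-coding genes and gene functions stood apart from Btbd7 KO in every Zcchc8 KO clone.

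The gene table held 8280397 to 17115112 counts per Btbd7 KO library, 6833258 to 7683444 in clone 1, 7053304 to 16994115 in clone 2 and 7578027 to 14593557 in clone 3. Levels are given as CPM, counts in relation to the library's TMM-scaled gene total, replicates 1 to 4 in order, with no correction for length, so levels of different genes are not compared. Protein-coding genes took 94.1% to 94.5% of gene counts in Btbd7 KO and 92.1% to 93.4% in the clones. Small nuclear and nucleolar RNAs took 0.0749% to 0.0975% in Btbd7 KO and 0.134% to 0.244% in the clones, with no overlap. The TMM factors were 0.959 to 0.971 in Btbd7 KO and 0.995 to 1.03 in the clones, so the scaling moves with the groups, and the counts it moves most are given with other scalings.

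The edited genes were read first. Btbd7 stood at 95.8, 104, 100 and 98.9 CPM in Btbd7 KO, at 198, 187, 217 and 201 in clone 1, at 215, 221, 200 and 218 in clone 2 and at 213, 213, 192 and 199 in clone 3. All 12 clone libraries lay above all 4 Btbd7 KO libraries, by 1.05 on the log2 scale (SE 0.05, edgeR adjusted p = 4.64e-28). Each SE given with a log2 difference is that difference, without its sign, divided by the square root of the edgeR F statistic. It is derived from the test and is only an approximate standard error. Zcchc8 stood at 57.4, 61.3, 65.5 and 66.2 CPM in Btbd7 KO, at 66.8, 61.1, 61.2 and 56.5 in clone 1, at 25.3, 22.1, 24.1 and 22.8 in clone 2 and at 56.2, 61.3, 51.5 and 50.3 in clone 3. Clone 2 lay below Btbd7 KO without overlap, and clones 1 and 3 overlapped it. The log2 differences of Zcchc8 were -0.02 in clone 1, -1.41 in clone 2 and -0.19 in clone 3 (SE 0.08 each, edgeR adjusted p = 0.815, 2.25e-22 and 0.0365). The clone 3 value lost its call without Btbd7 KO replicate 2, 3 or 4, clone 1 replicate 1 or 2, or clone 3 replicate 1, 3 or 4. It also lost it with DESeq2, without TMM factors, with factors from protein-coding genes, without the count filter and at equal depth. A small edit that spares the RNA is not visible in whole-gene counts, so Zcchc8 RNA is no check of the label in clones 1 and 3. Of the partners, Mtrex differed by -0.39, -0.05 and -0.25 in clones 1, 2 and 3, with no call in clone 2 (edgeR adjusted p = 0.441). Rbm7 differed by -0.06 in the mean of the clones (SE 0.06, edgeR adjusted p = 0.436), and its sign turned without TMM factors.

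A gene was called in every clone where the mean of the 3 clones and each clone alone differed from Btbd7 KO in 1 direction, at an edgeR adjusted p under 0.05. Of 11216 protein-coding genes tested, 963 (8.59%) were higher and 1697 (15.1%) were lower in every clone, so 36.2% of these calls were higher. That split depends on the scaling. Without TMM factors the counts were 1264 higher and 1228 lower (50.7% higher), and with factors from protein-coding genes alone they were 1251 and 1275 (49.5% higher). The median protein-coding gene moved from -0.06 to 0.01 and 0.00 under these scalings. Over genes of every kind, 7596 of 14454 (52.6%) were called in the mean of the clones, of which 47.6% were higher, or 58.3% of the calls without TMM factors. Among them 2252 protein-coding genes (20.1%) were higher and 3824 (34.1%) lower. Changes of at least 2-fold in each clone were fewer and mostly upward: 202 genes (1.8%) were higher and 61 (0.544%) lower. The clones also differed among themselves in 5702 protein-coding genes (50.8%) in a test of clone against clone.

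The 12 highest and the 12 lowest genes were taken by the change of the clone that changed least, among genes called in every clone with a mean of at least 50 counts. The values that follow describe genes chosen for their size of change. Grin1, the obligatory subunit of NMDA-type glutamate receptors, stood at 0, 0.0665, 0.875 and 1.28 CPM in Btbd7 KO. It stood at 8.49, 10.3, 6.93 and 7.56 CPM in clone 1, at 8.49, 4.97, 9.47 and 6.05 in clone 2 and at 8.18, 8.51, 3.86 and 8.3 in clone 3. Every clone library was above every Btbd7 KO library, and the mean log2 difference was 4.01 (SE 0.51, edgeR adjusted p = 6.56e-06). Lrrc75b, which encodes a leucine-rich repeat protein, stood at 0.723, 0.466, 1 and 0.256 CPM in Btbd7 KO, at 6.23, 4.53, 3.54 and 4.3 in clone 1, at 6.96, 5.76, 6.93 and 6.89 in clone 2 and at 9.24, 7.11, 9.65 and 8.17 in clone 3. The groups did not overlap, and clone 3 had the highest level (mean log2 difference 3.43, SE 0.27, edgeR adjusted p = 4.91e-17).

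Msh5, a MutS homologue that acts in meiotic crossing over, stood at 3.8, 3.46, 4.75 and 4.53 CPM in Btbd7 KO, at 24.4, 22.9, 23.9 and 28.2 in clone 1, at 35.1, 22.5, 28.3 and 30.7 in clone 2 and at 25.4, 19.4, 19 and 22.7 in clone 3. No libraries overlapped, and the mean log2 difference was 2.63 (SE 0.13, edgeR adjusted p = 2.83e-25). Mttp encodes the microsomal triglyceride transfer protein that loads lipid onto apolipoprotein B. It stood at 5.54, 5.26, 5.5 and 3.59 CPM in Btbd7 KO, at 27.3, 29.1, 33.3 and 31.8 in clone 1, at 24.5, 21.3, 20.4 and 24.6 in clone 2 and at 25.1, 32.3, 34.6 and 26.9 in clone 3. The 3 clones were again all above Btbd7 KO, by 2.45 on the log2 scale (SE 0.12, edgeR adjusted p = 2.05e-25). Chdh, the mitochondrial choline dehydrogenase, stood at 4.34, 3.86, 3.37 and 2.82 CPM in Btbd7 KO, at 22.7, 20, 14.7 and 15.1 in clone 1, at 34.8, 31.1, 44.6 and 33.1 in clone 2 and at 33.8, 24.1, 47.5 and 39.3 in clone 3. Clone 1 was the lowest of the clones and still above every Btbd7 KO library (mean log2 difference 2.96, SE 0.20, edgeR adjusted p = 1.27e-10).

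Nupr1l, a relative of the stress-response gene Nupr1, stood at 1.26 to 2.22 CPM in Btbd7 KO and at 8.17 to 17.2 in the clones, a mean log2 difference of 2.66 (SE 0.19). Clec11a, which encodes a secreted C-type lectin growth factor, stood at 2.05 to 3.87 CPM in Btbd7 KO and at 10.4 to 16.7 in the clones (2.40, SE 0.16). The other 4 genes without overlap were Fam71e1 (2.37, SE 0.23), the membrane protein gene Tmem44 (2.40, SE 0.21), the scavenger receptor gene Ssc4d (2.36, SE 0.16) and the predicted gene Gm9958 (2.32, SE 0.12). Rps6ka6, which encodes the kinase RSK4, was the exception. Its 4 Btbd7 KO libraries held 7 counts, against 19 in clone 1, 35 in clone 2 and 930 in clone 3. Clones 1 and 2 overlapped Btbd7 KO, whereas clone 3 stood at 20.3, 21, 24.3 and 19.7 CPM. Rps6ka6 kept its call in only 1 clone when each clone was fitted with Btbd7 KO alone, and in 2 clones without clone 1 replicate 3. The plot of named genes by library shows both sets.

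**Figure D1:**
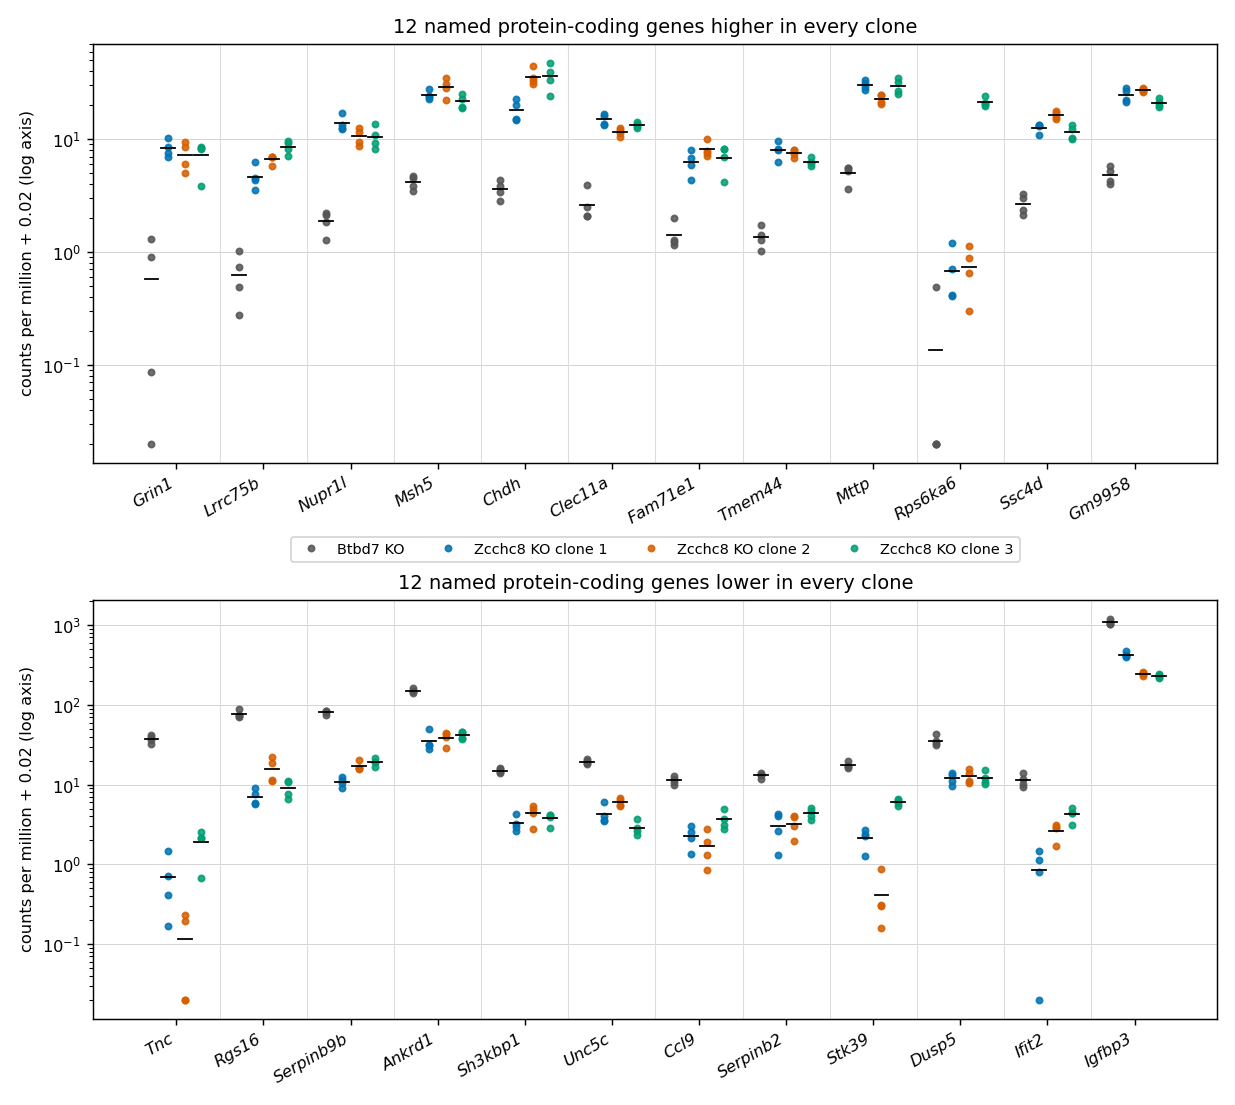
CPM + 0.02 (log axis) of the 12 highest and 12 lowest named protein-coding genes in each of the 16 libraries, 1 point per library, with a bar at the mean of each group. Clone libraries do not overlap Btbd7 KO for any of these genes but Rps6ka6, which is high in clone 3 alone. The genes were chosen for a large change in the clone that changed least, so this separation largely follows from the choice. The share without overlap over all genes was not counted.

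Position was shared by 7 of the 12 higher genes. In the annotation (GENCODE M21, GRCm38), each overlaps the 5000 bases before the start of a protein-coding neighbour on the opposite strand, which is where a PROMPT of that neighbour would run, on the strand of the named gene. None of the 12 lower genes does. Of all 11216 protein-coding genes tested, 24.7% do. The named genes were chosen for their change, so no conclusion is drawn from these counts. The PROMPT region of the neighbour was tested for 5 of the 7 and was higher in every clone for all 5. Over all PROMPT regions of protein-coding genes tested, the share was 52.3%. That share is no benchmark for the 5, since the named genes were chosen for their rise and the same RNA may be counted in both. For Msh5 the neighbour is the chloride channel gene Clic1, whose PROMPT region differed by 3.89 on the log2 scale (SE 0.42). For Mttp it is the tRNA methyltransferase gene Trmt10a (3.81, SE 0.15), for Chdh the interleukin receptor gene Il17rb (3.45, SE 0.38), for Fam71e1 the gene Emc10 of the endoplasmic reticulum membrane complex (2.37, 2.67 and 2.46 in clones 1, 2 and 3) and for Gm9958 the gene Ankrd17 (2.24, SE 0.12). Of these 5 neighbour genes, Clic1 itself differed by -0.17, Trmt10a by -0.14, Ankrd17 by -0.11 and Emc10 by -0.04, and Il17rb by 3.41, none of them called in every clone. For Lrrc75b (neighbour Ggt1) and Clec11a (neighbour Shank1) the PROMPT region had too few counts to be tested. Shank1, a scaffold of synapses, was itself higher in every clone (3.64, edgeR adjusted p = 2.58e-07). How reads in overlapping features were assigned, and whether strand was used, is not given in the sources used here. Counts of these genes and RNA that starts at the neighbour's promoter therefore cannot be told apart.

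The sequence between paired starts is shown for 3 of these genes, because it is the stretch from which both the named gene and the PROMPT region of its neighbour run. All are from RefSeq, build GRCm38.p6, read 5′ to 3′ on the strand of the named gene. Capitals mark the bases between the RefSeq starts, and 15 lower-case bases flank them on either side. Those of Chdh lie at chr14:30008882-30009014 (+), with 103 bases between the starts. Those of Fam71e1 lie at chr7:44496499-44496609 (+), with 81 bases, and those of Mttp at chr3:138143404-138143462 (-), with 29 bases.
Chdh and Il17rb: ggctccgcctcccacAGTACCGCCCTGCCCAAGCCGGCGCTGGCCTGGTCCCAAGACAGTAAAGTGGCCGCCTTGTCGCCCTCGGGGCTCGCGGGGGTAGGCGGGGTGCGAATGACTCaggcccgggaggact
Fam71e1 and Emc10: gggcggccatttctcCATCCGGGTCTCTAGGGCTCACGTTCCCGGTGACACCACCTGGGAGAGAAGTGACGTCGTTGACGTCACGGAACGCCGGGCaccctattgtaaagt
Mttp and Trmt10a: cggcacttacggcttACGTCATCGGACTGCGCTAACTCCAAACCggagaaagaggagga
GENCODE places the starts differently, at distances of 127 bases for Chdh, 52 for Fam71e1 and 1520 for Mttp.

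The same position was counted over all protein-coding genes, as a description. Such an opposite-strand neighbour within 5000 bases was found for 2765 of the 11216 genes tested (24.7%). It was found for 91 of the 202 genes that were higher at least 2-fold in every clone (45.0%) and for 3 of the 61 that were lower (4.92%). With a window of 1000 bases, chosen after seeing the data, the shares were 20.9%, 40.6% and 1.64%, and with 10000 bases, also chosen afterwards, they were 29.4%, 50.5% and 4.92%. The 202 genes had a median of 0.842 CPM in Btbd7 KO, the 61 a median of 5.10 and all genes tested 37.3. A gene low in Btbd7 KO could pass the count filter through the clones alone. The shares therefore compare unlike sets of genes, and no conclusion is drawn from their difference. Among genes with a mean of at least 50 counts, a filter added after seeing the data, the shares were 25.1% of those tested, 45.7% of those higher (37 of 81) and 5.26% of those lower (1 of 19). Counts in the clones alone could carry a gene past that filter too.

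**Figure D2:**
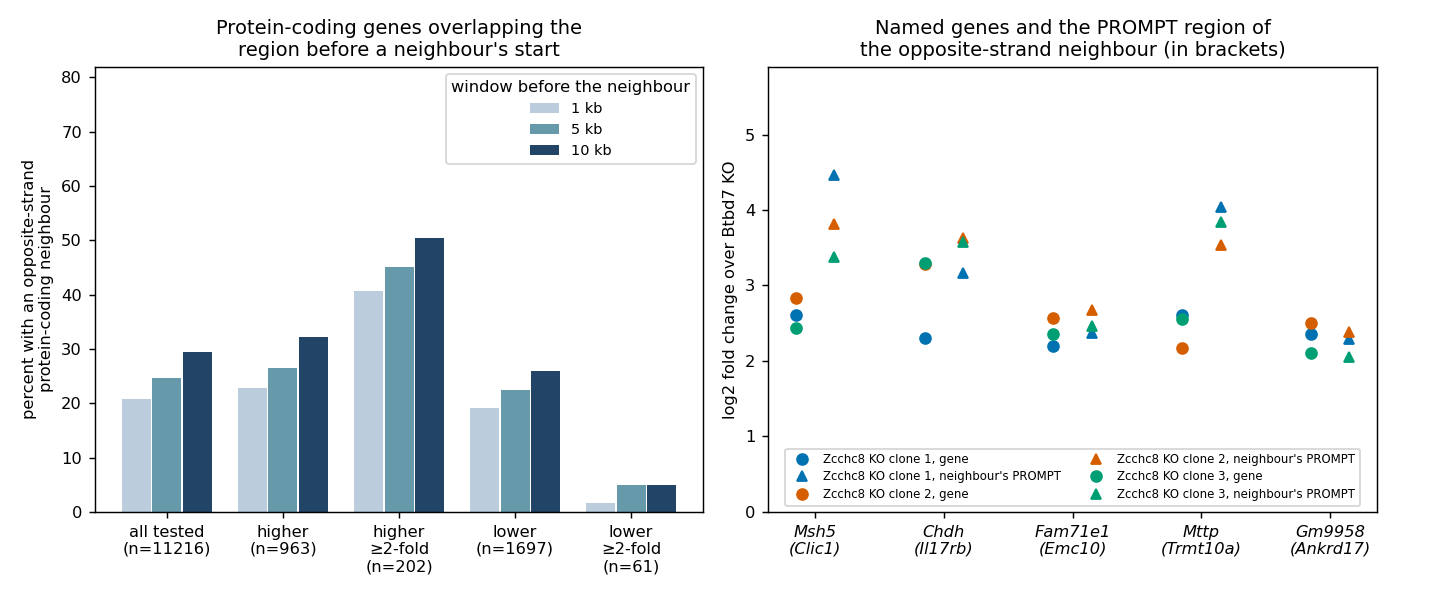
Left, percent of protein-coding genes (axis from 0) that overlap the window before the start of an opposite-strand protein-coding neighbour, by window length, for genes tested and for sets higher or lower in every clone. Right, log2 fold change over Btbd7 KO in each clone for 5 named genes (circles) and for the PROMPT region of the neighbour (triangles), all of them above 2. The genes higher at least 2-fold stand at 45.0% for the middle window, against 24.7% of genes tested, a set with a higher median level in Btbd7 KO.

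The lower genes were led by Tnc, which encodes the matrix glycoprotein tenascin C (chr4:63959785-64047015, minus strand, GRCm38). Tnc stood at 41.5, 36.2, 39.5 and 32.5 CPM in Btbd7 KO, at 1.46, 0.686, 0.147 and 0.391 in clone 1, at 0, 0, 0.173 and 0.209 in clone 2 and at 2.13, 2.54, 0.643 and 2.11 in clone 3. The clones were close to no signal, clone 2 lowest, with 20, 6 and 86 counts in clones 1, 2 and 3 against 1930 in Btbd7 KO. From the pooled counts Tnc was 55.1-fold lower in clone 1 (95% exact interval 35.5 to 90.3), 331-fold lower in clone 2 (152 to 902) and 19.4-fold lower in clone 3 (15.6 to 24.4), intervals that cover counting error only. The fitted mean log2 difference was -6.09 (SE 0.18, edgeR adjusted p = 1.05e-30). At so few clone counts this SE, derived from the test, is no reliable measure of precision. Stk39, the kinase SPAK that regulates cation-chloride cotransporters, was also near 0 in clone 2. It stood at 16.9, 19.6, 17.2 and 16.3 CPM in Btbd7 KO, at 2.65, 1.23, 2.36 and 2.22 in clone 1, at 0.139, 0.864, 0.289 and 0.278 in clone 2 and at 5.83, 6.48, 5.4 and 6.46 in clone 3 (mean log2 difference -3.31, SE 0.16).

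Igfbp3, the main binding protein of insulin-like growth factors in serum, stood at 1046, 1035, 1082 and 1187 CPM in Btbd7 KO, at 425, 471, 399 and 408 in clone 1, at 240, 248, 228 and 256 in clone 2 and at 217, 236, 223 and 245 in clone 3. The order Btbd7 KO, clone 1, then clones 2 and 3 held without overlap between Btbd7 KO and the clones (mean log2 difference -1.92, SE 0.04, edgeR adjusted p = 5e-44). Rgs16, a GTPase-activating protein that ends G-protein signals, stood at 69.7, 72.3, 88.7 and 74 CPM in Btbd7 KO, at 7.69, 9.06, 5.89 and 5.61 in clone 1, at 11.3, 11.2, 22 and 18.4 in clone 2 and at 6.54, 10.9, 7.59 and 10.8 in clone 3 (-2.91, SE 0.16). Ankrd1, an ankyrin repeat protein known as a target of YAP, stood at 139, 149, 149 and 164 CPM in Btbd7 KO and at 27.8 to 49.5 in the clones (-1.96, SE 0.11). Neither gene overlapped between groups.

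Serpinb9b stood at 75 to 84.7 CPM in Btbd7 KO and at 9.02 to 21.5 in the clones (-2.41, SE 0.07), and Serpinb2, plasminogen activator inhibitor 2, at 11.6 to 14 against 1.3 to 5.12 (-1.90, SE 0.17). The chemokine gene Ccl9 stood at 10 to 12.9 CPM against 0.835 to 4.95 (-2.22, SE 0.18). Ifit2, an interferon-induced gene, stood at 9.22 to 14.1 CPM in Btbd7 KO and fell most in clone 1 (-3.72) and least in clone 3 (-1.45). The netrin receptor gene Unc5c (-2.21, SE 0.13), the endocytic adaptor gene Sh3kbp1 (-1.98, SE 0.14) and Dusp5, a nuclear phosphatase of ERK (-1.53, SE 0.10), also fell, and of these the clones differed from each other for Unc5c.

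The clones differed from each other for 7 of the 12 higher and 8 of the 12 lower genes. The fit described next covered all 11216 protein-coding genes tested. The named genes were chosen from the same counts by the clone that changed least, which favours agreement between clones. Their calls in that fit are therefore no independent support. With each cell line summed to 1 replicate, so 3 clones against 1 line, edgeR called 10 of the 12 higher genes, all but Chdh and Rps6ka6. It called 7 of the 12 lower genes: Rgs16, Serpinb9b, Ankrd1, Sh3kbp1, Ccl9, Serpinb2 and Dusp5. In that fit the adjusted p was 0.0793 for Tnc, 0.0718 for Igfbp3, 0.0555 for Unc5c, 0.197 for Ifit2, 0.321 for Stk39, 0.0529 for Chdh and 0.43 for Rps6ka6. It called 83 protein-coding genes higher and 36 lower. The gene's own PROMPT region was tested for 5 of the 12 higher genes and was higher in every clone for 2 of them, Nupr1l (3.85) and Msh5 (2.78). It was tested for 3 of the 12 lower genes and was higher for 1, Dusp5 (2.42), whose gene fell. Of all PROMPT regions of protein-coding genes tested, 52.3% were higher in every clone.

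Promoters of the named genes were searched for 4 short motifs on both strands, in RefSeq windows (GRCm38.p6) from 250 bases before to 50 after the start. Windows matched 11 of the 12 higher genes, without Lrrc75b, and 12 of the 12 lower ones. TGANTCA, the core bound by AP-1, was in 2 higher and 2 lower genes, against 7.81% of all 32851 windows. TATAAA was in 1 and 3 genes (13.6% of windows), GGAATG, bound by TEAD factors, in 2 and 1 (14.7%), and the core of the interferon-stimulated response element, a pair of GAAA with any 2 bases between them, in 0 and 0 (3.44%). The median number of CG steps was 23 in the higher, 16 in the lower genes and 7 in all windows. All windows were taken whatever their genes' counts in these cells, whereas the named genes had a mean of at least 50. The motif shares and CG steps therefore compare unlike sets. A match describes letters only. The 250 bases before the start are shown for the 3 lower genes with TATAAA, on the gene's strand, with TATAAA and TGANTCA on either strand in capitals: Tnc at chr4:64047016-64047265 (-), Ccl9 at chr11:83578637-83578886 (-) and Serpinb2 at chr1:107511173-107511422 (+).
Tnc: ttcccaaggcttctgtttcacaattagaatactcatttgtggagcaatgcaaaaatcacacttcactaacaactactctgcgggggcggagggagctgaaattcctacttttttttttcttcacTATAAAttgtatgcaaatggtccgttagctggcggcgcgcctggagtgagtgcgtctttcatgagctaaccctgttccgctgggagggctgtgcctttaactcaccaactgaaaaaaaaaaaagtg
Ccl9: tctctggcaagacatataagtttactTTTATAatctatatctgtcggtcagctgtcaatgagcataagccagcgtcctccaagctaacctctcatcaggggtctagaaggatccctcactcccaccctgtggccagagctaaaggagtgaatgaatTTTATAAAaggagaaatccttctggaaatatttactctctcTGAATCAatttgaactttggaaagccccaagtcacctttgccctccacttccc
Serpinb2: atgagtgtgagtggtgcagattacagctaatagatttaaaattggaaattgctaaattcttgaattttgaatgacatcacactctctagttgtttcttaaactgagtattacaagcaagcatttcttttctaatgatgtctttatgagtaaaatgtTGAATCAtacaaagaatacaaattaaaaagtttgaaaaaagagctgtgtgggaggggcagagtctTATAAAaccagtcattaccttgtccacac
In Serpinb2 the TATAAA begins 29 bases before the start and the TGANTCA 94 bases before it. In Ccl9 the TGANTCA begins 53 bases before the start.

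Gene functions were read over 31 lists, each given as members called in every clone. Over all protein-coding genes tested, 8.59% were higher and 15.1% lower, with a median log2 difference of -0.06. The lists and their members were chosen with earlier results of these data known, and some hold genes named above for their size of change. The shares and their order therefore describe these lists and are no test against all genes. The proteasome, the protease that degrades ubiquitin-tagged proteins, had the highest share of lower members: 22 of 34 subunit genes tested (64.7%) were lower, none was higher and the median was -0.38. The 22 were 17 without TMM factors and 18 with factors from protein-coding genes. Psmc1, an ATPase of the regulatory particle, stood at 172, 179, 176 and 178 CPM in Btbd7 KO, at 106, 101, 87.7 and 87.1 in clone 1, at 91.6, 92.9, 110 and 102 in clone 2 and at 89.8, 114, 93.8 and 98.7 in clone 3. All 3 clones fell without overlap with Btbd7 KO (mean log2 difference -0.85, SE 0.05, edgeR adjusted p = 1.57e-20). Psmc5 (-0.78), Psmd3 and Psma3 (-0.71 each) were next, and the smallest change among the 22 was that of Psmb1 (-0.23). Chaperones and genes of the unfolded protein response had 16 of 34 members lower and 1 higher, with a median of -0.26. Pdia6, a disulfide isomerase, stood at 177 to 194 CPM in Btbd7 KO and at 85.8 to 126 in the clones (-0.78, SE 0.04), and Xbp1 (-0.66), Hspe1 (-0.62) and Hspa5 (-0.48), the chaperone BiP, also fell. The stress-induced Hspa1a was the higher member (1.20). The count of lower members was 10 without TMM factors or with factors from protein-coding genes.

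**Figure D3:**
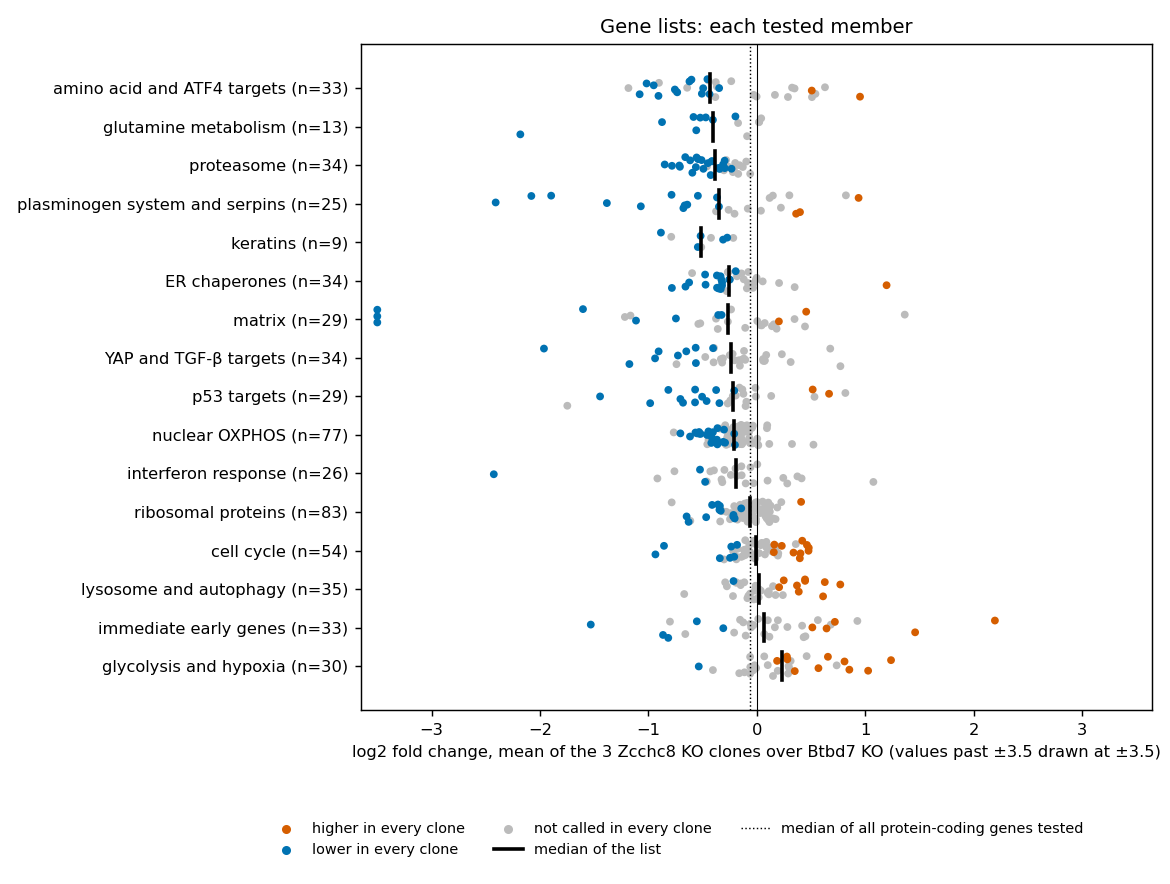
Log2 fold change of the mean of the clones over Btbd7 KO for each tested member of 16 gene lists, 1 point per gene, coloured where called in every clone, with the median of the list and (dotted) of all protein-coding genes tested; 3 matrix members past the axis are drawn at its limit. The 22 called proteasome members all lie below 0, whereas glycolysis and hypoxia has 10 called members above 0 and 1 below. The row labelled YAP and TGF-β targets also holds components of these pathways.

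The lists of amino acid supply and glutamine metabolism followed. Of 33 genes of amino acid synthesis, transport and the integrated stress response, 13 were lower and 2 higher, with a median of -0.44. The clones differed in size, with medians of -0.33, -0.69 and -0.16 in clones 1, 2 and 3. The lower count was 9 without TMM factors or with factors from protein-coding genes, and 8 without clone 3 replicate 3 or without clone 3 replicate 4. Aldh18a1, which starts proline synthesis from glutamate, stood at 218, 207, 205 and 210 CPM in Btbd7 KO, at 79.8, 85.3, 101 and 98.5 in clone 1, at 102, 104, 107 and 101 in clone 2 and at 128, 133, 108 and 107 in clone 3 (-1.02, SE 0.05, edgeR adjusted p = 1.2e-24). Asparagine synthetase, Asns, stood at 183, 200, 192 and 189 CPM in Btbd7 KO, at 73.7, 92.3, 111 and 92.9 in clone 1, at 83.4, 76.7, 77 and 66.9 in clone 2 and at 138, 165, 135 and 117 in clone 3. Both were lower in every clone library, and Asns fell least in clone 3 (mean -0.95, SE 0.09). The transporters Slc1a4 (-1.08) and Slc7a5 (-0.91), the proline enzyme Pycr1 (-0.76) and the serine synthesis genes Psph (-0.73), Phgdh (-0.60) and Psat1 (-0.51) fell too. The glutamine transporter gene Slc38a2 (0.51) and Nupr1 (0.95) were the higher members. Of 13 genes of glutamine and glutathione metabolism, 8 were lower and none higher (median -0.40). Glul, glutamine synthetase, stood at 10.1, 8.12, 11.9 and 12.9 CPM in Btbd7 KO, at 3.71, 2.2, 2.06 and 2.48 in clone 1, at 4.59, 2.52, 4.96 and 4.73 in clone 2 and at 0.64, 1.02, 2.19 and 1.16 in clone 3 (-2.18, SE 0.19, edgeR adjusted p = 3.52e-15). Got1 (-0.87), Cad (-0.58), which starts pyrimidine synthesis, and the glutamate-cysteine ligase genes Gclm (-0.56) and Gclc (-0.52) were also lower.

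The p53 and cell cycle lists were read together. Of 29 genes known as p53 targets or regulators, 12 were lower and 2 higher, with a median of -0.22. Plk2 stood at 226, 227, 248 and 248 CPM in Btbd7 KO, at 61.9, 83.4, 59.4 and 50.1 in clone 1, at 85.9, 88.3, 101 and 95.3 in clone 2 and at 107, 117, 110 and 111 in clone 3. Plk2 was lowest in clone 1, and no clone library overlapped Btbd7 KO (-1.45, SE 0.07, edgeR adjusted p = 2.65e-12). Ccng1, cyclin G1, stood at 211 to 247 CPM in Btbd7 KO and at 97.1 to 124 in the clones (-0.98 in clone 1, -0.97 in clone 2 and -1.01 in clone 3). Cdkn1a, which encodes the inhibitor p21, fell by 0.82, Zmat3 by 0.68 and Trp53 itself by 0.50 on the log2 scale, whereas Ddb2 (0.67) and Btg2 (0.52) were higher. Among 54 cell cycle genes, 10 were higher and 7 lower with a median of -0.01, which turned to 0.06 without TMM factors. Ccnd1, cyclin D1, stood at 564 to 630 CPM in Btbd7 KO, at 242 to 289 in clone 1, at 284 to 318 in clone 2 and at 337 to 407 in clone 3 (-0.93, SE 0.04), and Ccnd2 fell by 0.86. Pcna and Tk1, which serve DNA synthesis, were higher (0.48 each), as was the inhibitor Cdkn1b (0.40). The 7 lower cell cycle genes were 4 without clone 2 replicate 1, 3 without TMM factors and 4 with factors from protein-coding genes.

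The secreted proteolysis and matrix lists held several of the largest falls. Of 25 genes of the plasminogen system, serpins and metalloproteinases, 12 were lower and 3 higher (median -0.35). Adamts5 (-2.08), Timp3 (-1.38) and the urokinase receptor gene Plaur (-0.64) were lower, and the tissue plasminogen activator gene Plat (0.94), Spint1 (0.40) and Mmp15 (0.36) higher. Of 29 matrix genes, 8 were lower and 2 higher (median -0.27). Their median was -0.25, -0.35 and -0.07 in clones 1, 2 and 3, the last near the -0.06 of all protein-coding genes in clone 3. Col3a1, a fibrillar collagen, stood at 6.57, 9.18, 7.75 and 5.89 CPM in Btbd7 KO, at 0.398, 0.274, 0 and 0 in clone 1, at 0.139, 0, 0 and 0.139 in clone 2 and at 1.14, 0.762, 1.29 and 0.408 in clone 3. It was close to no signal in clones 1 and 2, and its fitted value of -5.05 (SE 0.33) is imprecise there. Col5a2 (-4.54), Loxl1 (-1.60), Sparc (-1.11) and Thbs1 (-0.75) fell with it, and the laminin genes Lamb2 (0.46) and Lama5 (0.20) were higher. Tnc is a member of the matrix list, and Serpinb2 and Serpinb9b of the serpin list.

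Genes of YAP and TGF-beta signalling, both pathway components and targets, had 9 of 34 members lower and none higher (median -0.24). Without TMM factors or with factors from protein-coding genes, 7 were lower and 3 higher. The list median was -0.30, -0.30 and -0.07 in clones 1, 2 and 3, the last near the -0.06 of all protein-coding genes in clone 3. The lower members included Ankrd1, the matricellular gene Ccn1 (-1.17), which fell from a mean of 293 CPM to 136, 68.6 and 233 in clones 1, 2 and 3, the activin antagonist gene Fst (-0.94), Amotl2 (-0.91) and Tgfb3 (-0.73). Of 9 keratin genes tested, which encode the intermediate filaments of epithelia, 5 were lower and none higher (median -0.51). Krt14 stood at 400, 421, 417 and 419 CPM in Btbd7 KO, at 212, 217, 168 and 165 in clone 1, at 285, 260, 329 and 286 in clone 2 and at 206, 225, 190 and 197 in clone 3. It was lower in every clone library and fell least in clone 2 (-0.88, SE 0.07). Krt8 (-0.54), Krt7 (-0.52), Krt18 (-0.31) and Krt80 (-0.27) completed the 5. Integrins had 2 of 10 lower, Itga5 (-0.40) and Itga3 (-0.33), and 1 higher, Itgb5 (0.32). Junction genes and epithelial regulators had 5 of 37 higher and 3 lower (median 0.07). Grhl1 (0.80), desmoplakin, Dsp (0.56), and Epcam (0.25) rose, and Cdh3 (-0.64), Cldn12 (-0.50) and Tjp1 (-0.42) fell. Of 10 mesenchymal genes tested, only Tpm2 was called, and it was higher (0.48).

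**Figure D4:**
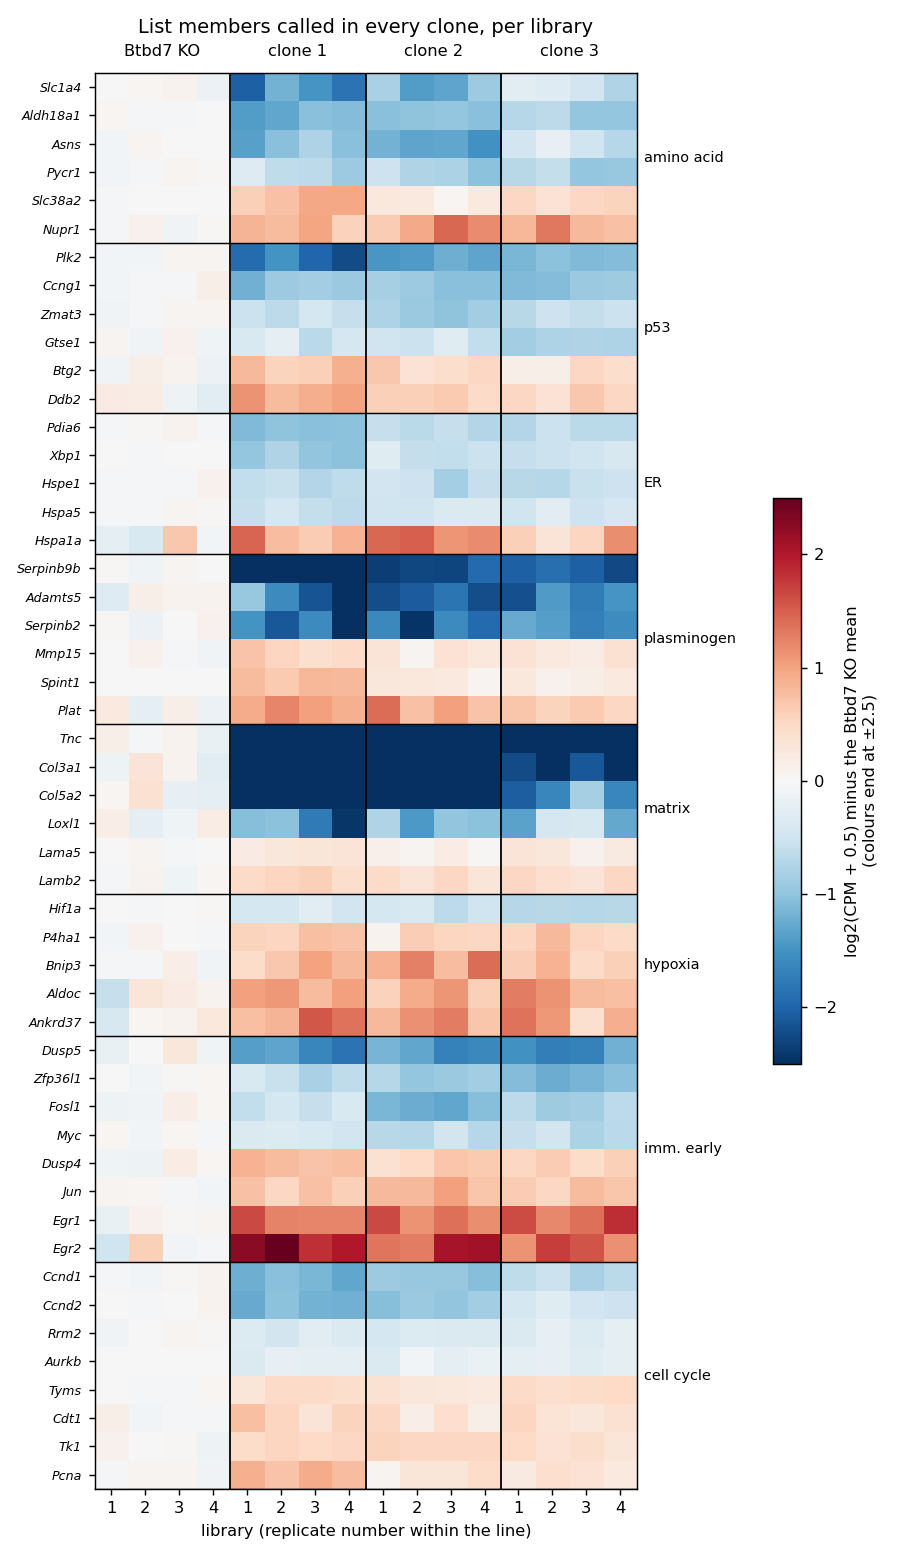
Heat map of named list members called in every clone, 1 row per gene and 1 column per library, as log2(CPM + 0.5) minus the mean of the 4 Btbd7 KO libraries, with colours ending at 2.5 in either direction. Only genes called in every clone are rows, so that choice gives the 12 clone columns 1 colour direction in most rows. Clone 3 is paler than clones 1 and 2 for Asns and Plk2.

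Glycolysis and hypoxia genes had the largest share of higher members of the 31 lists: 10 of 30 (33.3%) were higher and 1 lower, with a median of 0.24. That median was 0.30 in clone 1 and 0.25 in clone 2 but only 0.02 in clone 3. Over all protein-coding genes tested, the clone 3 median was -0.06. Ankrd37 stood at 1.27, 1.93, 2 and 2.31 CPM in Btbd7 KO and at 2.57 to 6.34 in the clones (1.24, SE 0.25, edgeR adjusted p = 2.13e-05). Aldoc, aldolase C, stood at 1.99 to 4.06 CPM against 5.01 to 8.53 (1.03, SE 0.19), and Bnip3, a mitophagy receptor, at 16.4 to 19.6 against 24 to 46.5 (0.85, SE 0.10). Ndrg1 rose from a mean of 148 CPM to 347, 273 and 184 in clones 1, 2 and 3 (0.81), and Pdk1, a pyruvate dehydrogenase kinase gene, by 0.66. The lower member was Hif1a itself (-0.53), at a mean of 413 CPM in Btbd7 KO and 311, 294 and 254 in the clones. Nuclear-encoded subunits of oxidative phosphorylation had 21 of 77 lower and none higher (median -0.21), or 17 lower under either other scaling, among them Atp5g1 (-0.70), Uqcrq (-0.62) and Ndufa5 (-0.57). Of 7 tested mitochondrial-encoded genes 1 was called, mt-Nd5 (0.35). Lysosome and autophagy genes had 9 of 35 higher and 1 lower (median 0.02). Map1lc3a (0.77), the cathepsin gene Ctsa (0.63) and the peptidase gene Tpp1 (0.61) rose, and Atg5 (-0.21) fell.

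Antioxidant genes linked to NRF2 had 9 of 30 lower and 3 higher (median -0.09). Gpx2 (-3.55, SE 0.43) stood at 1.96 to 4.12 CPM in Btbd7 KO and at 0 to 0.975 in the clones, and Hmox1 (-0.63) and Gpx1 (-0.59) also fell. The glutathione transferase gene Gstm2 stood at 5.48, 6.65, 4.62 and 6.92 CPM in Btbd7 KO, at 33.3, 24.8, 33.4 and 30.6 in clone 1, at 10.9, 19.2, 22.1 and 19.6 in clone 2 and at 14.7, 21.1, 16.5 and 15 in clone 3. It was higher in every clone, most in clone 1 (1.81, SE 0.14, edgeR adjusted p = 1.34e-14), as were Gstm1 (0.74) and the secreted dismutase gene Sod3 (2.57). The Gstm genes are close copies, so reads may be split between them. Sterol and fatty acid genes had 6 of 35 lower, with Fads2 (-0.63), Acaca (-0.51) and Acly (-0.49), and 2 higher, one of them Insig1. Insig1 had a mean of 0.0713 CPM in Btbd7 KO and 1.15, 0.789 and 0.903 in the clones, with 1 clone 2 library at 0, so libraries overlapped.

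Immediate early genes, which respond within minutes to growth factors, split evenly, with 5 of 33 higher and 5 lower (median 0.07). Egr1 stood at 7.41, 9.12, 8.62 and 8.88 CPM in Btbd7 KO, at 27.8, 20.7, 20.5 and 20.3 in clone 1, at 27.8, 19, 22.9 and 19.5 in clone 2 and at 27.2, 20.2, 22.9 and 31.7 in clone 3. All clone libraries were above Btbd7 KO (1.46, SE 0.12, edgeR adjusted p = 1.61e-15). Egr2 (2.20, SE 0.30), Jun (0.72) and the ERK phosphatase gene Dusp4 (0.64) also rose, whereas Zfp36l1 (-0.86), the AP-1 member Fosl1 (-0.82) and Myc (-0.55) fell, as did Dusp5. Of 41 genes of Wnt, Notch, FGF and EGF signalling, 8 were higher and 10 lower, and the median of -0.04 turned to 0.03 without TMM factors. Fgfr1, a receptor of fibroblast growth factors, stood at 5.67, 6.85, 4.75 and 4.7 CPM in Btbd7 KO, at 24, 22.2, 15.6 and 19.4 in clone 1, at 42.3, 35.4, 49.9 and 40 in clone 2 and at 9.1, 9.53, 8.11 and 11.9 in clone 3. It was higher in every clone, and the 3 clones did not overlap each other (1.86, SE 0.13), while Fgfr2 fell (-1.15). The EGF-family ligands Nrg1 (-1.13), Areg (-0.95) and Ereg (-0.81) and Wnt7a (-0.89) fell, and the receptors Fzd7 (0.81), Notch3 (0.75) and Fzd1 (0.69) rose.

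Interferon-stimulated genes had 3 of 26 lower and none higher (median -0.19): Ifit2, Ifi35 (-0.52) and Irgm1 (-0.48). Antigen presentation had 1 of 15 called, the non-classical class I gene H2-T23 (0.92, SE 0.10). Of 27 inflammatory genes, 3 were higher and 3 lower (median -0.17). The sign of the median was not shared by the clones (0.14, -0.05 and -0.39 in clones 1, 2 and 3). Il18 stood at 4.22, 4.46, 2.87 and 4.01 CPM in Btbd7 KO and at 7.46 to 16.6 in the clones, without overlap (1.55, SE 0.15, edgeR adjusted p = 1.53e-13). Tnfaip2 (0.89) and Cx3cl1 (0.46) rose, and the cytokines Lif (-0.91) and Csf1 (-0.78) and the NF-kappaB inhibitor gene Tnfaip3 (-0.42) fell.

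The RNA decay machinery was read next. Of 24 tested genes of NEXT, the exosome and related cofactors, 5 were lower and 2 higher (median -0.16). The exosome core genes Exosc1 (-0.63) and Exosc9 (-0.55), the ribonuclease gene Dis3 (-0.33), the TRAMP subunit gene Zcchc7 (-0.30) and the cap-binding gene Ncbp1 (-0.23) were lower, and Srrt (0.40), the ARS2 protein that joins the cap to NEXT, and Zfc3h1 (0.31) of the poly(A) tail exosome connection were higher. Splicing factors had 9 of 36 lower and 2 higher, the kinases Clk1 (0.49) and Clk2 (0.41). Srsf5 (-0.42), Srsf2 (-0.36) and Ptbp1 (-0.30) fell. The count of lower splicing genes was 5 without Btbd7 KO replicate 1, without TMM factors and with factors from protein-coding genes, and the median of -0.05 turned to 0.02 without TMM factors. Transcription and 3′ end processing genes had 7 of 38 lower, with Cpsf2 (-0.74), Cpsf3 (-0.69), Ints2 (-0.66) and Polr2a (-0.43), and 2 higher, Ints6 (0.39) and Pcf11 (0.22). Their median of -0.03 turned to 0.03 without TMM factors, with 4 higher members.

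Ribosomal protein genes had 12 of 83 lower and 1 higher, with Rpl27 (-0.65) and Rps27l (-0.63) lower and Rpl5 (0.41) higher. Their median of -0.06 was that of all genes and turned to 0.00 without TMM factors. The 12 were 6 without Btbd7 KO replicate 3 or 4, 7 without clone 1 replicate 4 or clone 2 replicate 2, 6 without TMM factors and 5 with factors from protein-coding genes. Histone genes had 7 of 57 higher and 6 lower, and the lower count was 3 without Btbd7 KO replicate 3, 1 without TMM factors and 3 with factors from protein-coding genes. Hist2h2be stood at 3.87 to 6.06 CPM in Btbd7 KO and at 11.2 to 16.3 in the clones (1.49, SE 0.14), with Hist3h2a (1.41) and Hist2h3c2 (1.33) also higher and Hist4h4 (-0.69) lower. Histone copies are near identical, so reads may be split between them. Zinc finger genes named Zfp had 29 of 289 higher (10.0%) and 7 lower (2.42%), with a median of 0.06, and 40 higher and 5 lower without TMM factors. Zfp108 stood at 1 to 1.33 CPM in Btbd7 KO and at 1.85 to 5.17 in the clones (1.39, SE 0.27), and Zfp365 at 15.5 to 18.9 against 4.51 to 11.6 (-1.40, SE 0.12). Salivary duct transport and identity genes had 2 of 18 higher and 4 lower (median 0.11). The transcription factor gene Tfcp2l1 rose (1.25) and the bicarbonate cotransporter gene Slc4a4 fell (-0.62). Trp63, the basal epithelial factor p63, stood at 0.301 to 1.06 CPM in Btbd7 KO, at 0.412 to 2.74 in clone 1, at 19.6 to 23.3 in clone 2 and at 3.18 to 5.15 in clone 3, so clone 1 overlapped Btbd7 KO and clone 2 was far the highest.

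Transcripts that do not code for protein moved mostly upward. Of 3238 tested, 908 (28%) were higher in every clone and 38 (1.17%) lower. Snord11, a small nucleolar RNA, stood at 0.301, 0.266, 0.375 and 0.854 CPM in Btbd7 KO, at 16.7, 17.2, 25 and 18.1 in clone 1, at 10.9, 13, 11.4 and 12.1 in clone 2 and at 11.5, 16.6, 12.2 and 11.2 in clone 3. No library of the clones came near Btbd7 KO (5.01, SE 0.24, edgeR adjusted p = 1.64e-26). The predicted genes Gm44064 (4.78, SE 0.32) and Gm11335 (4.54, SE 0.34) were next, each with 14 counts in all of Btbd7 KO. The snoRNA gene Gm26397 (-1.68, SE 0.09) and the long non-coding gene F730043M19Rik (-1.16, SE 0.08) were the lowest. PROMPT regions, listed by the gene whose start they precede, were higher in every clone for 4215 of 8063 protein-coding genes (52.3%) and lower for 143 (1.77%), with a median log2 difference of 1.16. Among PROMPT regions of other genes the shares were 16.1% and 2.53%. Over all 15364 regions tested, 5391 (35.1%) were higher and 328 (2.13%) lower. Scaled within its own table, that count of lower regions was 2303. In the mean of the clones, 7422 regions were higher and 1077 lower on the gene totals. Scaled within the table they were 5111 and 4274, so the size of the upward split depends on the scaling. A PROMPT region or non-coding gene without counts in Btbd7 KO could pass the count filter through the clones alone. Such a feature could only be called higher, which can raise the shares higher and the median.

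Among single PROMPT regions, that of Rictor, the defining subunit of mTOR complex 2, held 3 counts in the 4 Btbd7 KO libraries and 848 in the 12 clone libraries, a ratio of rates of 115 (95% exact interval 39.1 to 557). The regions of Polr2m (ratio 53.3, 28.9 to 111), of the RecQ helicase gene Blm (40.6, 22.6 to 81.6) and of the autophagy gene Wdr45 (38.3, 23.2 to 68.7) followed. These ratios pool the clone libraries, so deeper libraries weigh more, and the intervals cover counting error only. With the clones weighted equally, the fitted fold for the Rictor region was 96.4. Of these 4 genes, only Wdr45 was itself called in every clone (0.67). The lowest regions were those of Atxn7l1 (-1.21, SE 0.13) and of the coenzyme A synthesis gene Ppcdc (-1.16, -0.92 and -0.92 in clones 1, 2 and 3). Atxn7l1 itself fell in every clone (-0.82), and F730043M19Rik, which fell too, runs away from its start on the other strand (chr12:33111711-33147597, minus strand, GRCm38). Its reads and those of the Atxn7l1 PROMPT region cannot be told apart in these tables.

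For each library, the median log2 ratio of PROMPT counts to gene counts over 7154 protein-coding genes needs no scaling between libraries. Mean and SD over 4 libraries were -4.92 ± 0.04 for Btbd7 KO, -3.06 ± 0.01 for clone 1, -3.30 ± 0.01 for clone 2 and -3.26 ± 0.06 for clone 3. The clones exceeded Btbd7 KO 3.63, 3.07 and 3.17 times, each with a two-sided exact permutation p of 0.0286, also 0.0286 when adjusted over the 3 clones, the smallest that 4 against 4 allows. The size depends on which genes enter. Where the gene and its PROMPT region each had a mean of at least 20 counts, it was 2.76, 2.38 and 2.44 times. Over genes of every kind it was 2.19, 1.91 and 1.99 times. A PROMPT region with counts in the clones alone could pass the count filter and enter the ratio.

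**Figure D5:**
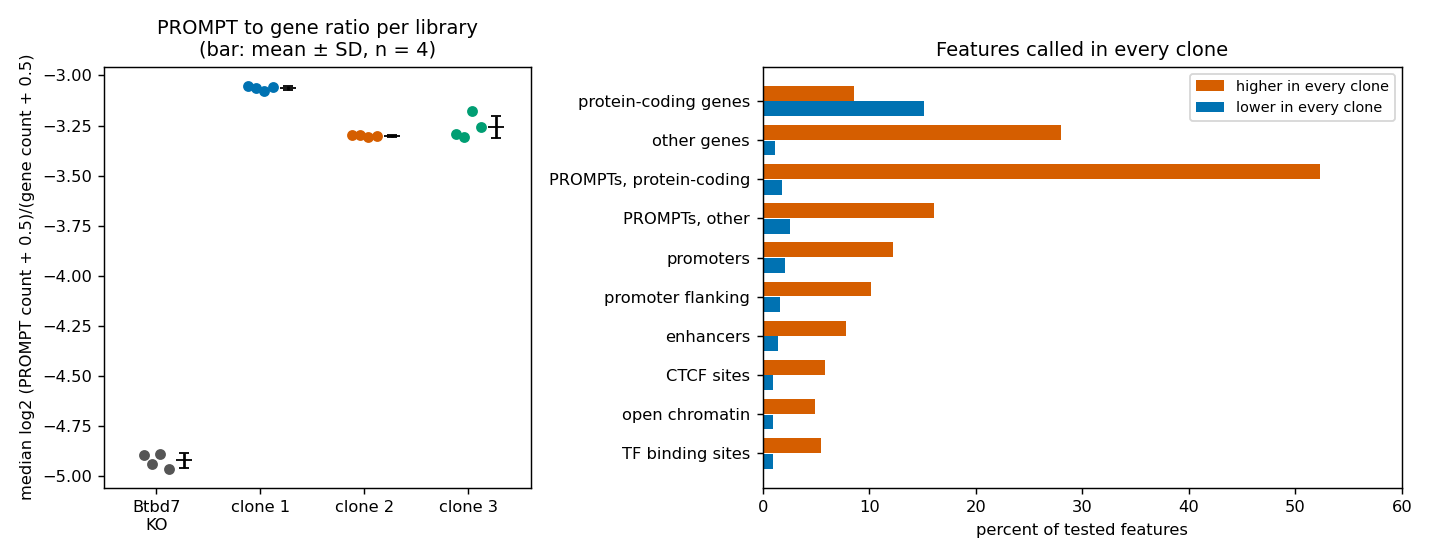
Left, median log2 ratio of PROMPT to gene counts in each library (1 point each) with the group mean and SD (n = 4). Right, percent of tested features called higher and lower in every clone by class (bars from 0); all 12 clone libraries lie above the 4 Btbd7 KO libraries on the left, and PROMPT regions of protein-coding genes reach 52.3% higher on the right.

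Annotated regulatory features were also counted by class. The share higher in every clone was 12.2% of 3912 promoters, 10.2% of 11106 promoter flanking regions, 7.77% of 6980 enhancers, 5.82% of 8279 CTCF sites, 5.5% of 1654 transcription factor binding sites and 4.94% of 5104 open chromatin regions. The shares lower were 2.12%, 1.61%, 1.42%, 0.93%, 0.967% and 0.999% in the same order. In the mean of the clones, called in either direction, the shares were 31.4% of promoters, 27.1% of promoter flanking regions, 23% of enhancers, 16.3% of CTCF sites, 17.7% of transcription factor binding sites and 15.3% of open chromatin regions. Of these calls 77.4%, 77.7%, 75.0%, 70.0%, 67.9% and 68.1% were higher, in the same order. Scaled within each table in place of the gene totals, the shares higher were 52.5%, 51.9%, 52.4%, 53.8%, 51.8% and 52.1%, so the upward split depends on the scaling. On the gene totals their medians lay between 0.12 and 0.21. Regulatory features without counts in Btbd7 KO could also pass the count filter through the clones alone. The promoter ENSMUSR00000326129 had the largest named rise, from 7 counts in Btbd7 KO to 923 in the clones (ratio of rates 53.5, 95% exact interval 25.9 to 133). That ratio is also pooled and its interval covers counting error only. With the clones weighted equally, the fitted fold was 46.1. The promoter ENSMUSR00000302654 fell most, from 20.4 to 28.1 CPM in Btbd7 KO to 1.57 to 7.16 in the clones (-2.88, SE 0.14). The highest and lowest features of the other classes were the CTCF sites ENSMUSR00000488448 (5.29) and ENSMUSR00000612323 (-1.94), the enhancers ENSMUSR00000713926 (5.15) and ENSMUSR00000585036 (-1.33), and the promoter flanking regions ENSMUSR00000526018 (5.16) and ENSMUSR00000267905 (-2.37). They were ENSMUSR00000645840 (4.14) and ENSMUSR00000623273 (-1.39) for open chromatin and ENSMUSR00000706649 (4.35) and ENSMUSR00000703726 (-1.61) for transcription factor binding sites. These identifiers carry no coordinates in the tables, so the genes beside them are not named here.

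Markers of the labelled tissue and of other cell types were read beside these results. All 10 duct epithelium markers were tested, and their summed level was 4458 to 4580 CPM in Btbd7 KO and 3249 to 4207 in the clones, a difference that moves with the keratins. Of 7 basal or myoepithelial markers 2 were tested, Krt14 and Trp63. The summed level was 401 to 423 CPM in Btbd7 KO and 169 to 351 in the clones, with Acta2 at 0 and Krt5 at 0.127 CPM in Btbd7 KO. Of 9 fibroblast markers 3 were tested, all collagens, and the sum of the 9 was 22.7 to 35.3 CPM in Btbd7 KO and 10.3 to 28.7 in the clones. Among those not tested, Lum, Thy1 and Dpt were at 0 in every library. Pdgfra had a mean of 0.542 CPM in Btbd7 KO and 0.0652, 0.121 and 0 in clones 1, 2 and 3. Dcn had a mean of at most 0.0994 CPM in any group, and Pdgfrb was seen in Btbd7 KO alone (0.0301). Acinar markers (2 of 8 tested) summed to 110 to 115 CPM in Btbd7 KO and 115 to 167 in the clones, almost all of it Aqp5, with Smgc, Dcpp2, Pip and Bpifa2 at 0. Endothelial and leukocyte markers summed to at most 1.43 and 0.924 CPM in any library, and nerve markers to at most 6.75. Whether the makeup of the cultures has a part in the fall of keratins was not tested. In bulk RNA, fewer cells of a kind and less RNA per cell cannot be told apart.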

How the data were processed

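The authors deposited whole-number read counts, not normalized, for genes and for 7 classes of feature, 1 column per library. STAR 2.7.3a and FastQC are named per the submitters' processing notes. The counting rule, strand setting, genome build and extent of a PROMPT region are not given in the sources used here. Gene positions came from GENCODE M21 (GRCm38), which matched 55230 of 55471 identifiers with or without version.

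Counts of the 16 libraries were fitted together with edgeR 4.0.16 in R 4.3.3 (robust quasi-likelihood test, TMM, filterByExpr, groups only, Benjamini-Hochberg adjustment over all features of a table, threshold 0.05), after the script was tested on simulated data. Feature tables used the gene table's library sizes and factors. Libraries within each group differed beyond sampling noise (chi-square) and were kept apart. Library totals of 6833258 to 17115112 counts limit genes with few counts.

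The members and lists were chosen with earlier results of these data known. The naming rule took Zcchc8, Btbd7, Rbm7 and Mtrex; the 12 highest and 12 lowest genes by the clone that changed least (mean of at least 50 counts); up to 4 members per list and direction, with further list members added after their values were seen; 4 and 2 PROMPT regions; 1 and 1 regulatory features per class; and 3 and 2 non-coding genes. Alternatives were DESeq2 1.42.0, other scalings and filters, pairwise fits, equal depth, the replicate number as a block, cell lines as replicates and leaving out each library. 1 list member is not reported here.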

Additional observations from a re-analysis of the deposited data

Results flagged for a closer look

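In 13 of 208 groups of 4 libraries, 1 library stood apart from the other 3 by Dixon's criterion, which chance alone meets in about 1 group in 20. Mtrex stood at 139 CPM in Btbd7 KO replicate 4 (the others at 145) and at 114 in clone 1 replicate 3 (107 to 109). Grin1 stood at 3.86 in clone 3 replicate 3 (8.18 to 8.51), Lrrc75b at 5.76 in clone 2 replicate 2 (6.89 to 6.96) and Fam71e1 at 2.00 in Btbd7 KO replicate 3 (1.15 to 1.26). Mttp stood at 3.59 in Btbd7 KO replicate 4 (5.26 to 5.54), Rps6ka6 at 0.466 in Btbd7 KO replicate 2 (the others at 0) and Ssc4d at 10.96 in clone 1 replicate 4 (13.2 to 13.4). Snord11 stood at 25.05 in clone 1 replicate 3 (16.7 to 18.1) and Gm11335 at 3.48 in clone 2 replicate 1 (6.77 to 7.33). The PROMPT region of Ppcdc stood at 11.1 in clone 2 replicate 4 (7.56 to 8.08), the enhancer ENSMUSR00000713926 at 9.32 in the same library (5.43 to 5.95) and the open chromatin region ENSMUSR00000623273 at 4.25 in clone 2 replicate 2 (3.35 to 3.48).

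The 3 clones differed from each other in 31 of 51 named features, in edgeR's test that the clones are equal. The distance between the highest and the lowest clone, on the log2 scale, was 5.01 for Rps6ka6, 3.95 for Tnc, 3.83 for Stk39, 2.27 for Ifit2, 1.39 for Zcchc8, 1.19 for Rgs16 and 1.09 for Unc5c. Among the other genes lower in every clone it was 0.99 for Ccl9, 0.89 for Igfbp3 and 0.80 for Serpinb9b. Among the higher genes it was 0.99 for Chdh, 0.87 for Lrrc75b, 0.51 for Ssc4d, 0.43 for Mttp, 0.40 for Msh5 and 0.40 for Gm9958, and it was 0.34 for Mtrex. For non-coding genes it was 0.72 for Gm26397, 0.69 for Snord11 and 0.69 for F730043M19Rik. For PROMPT regions it was 0.96 for Rictor, 0.88 for Blm, 0.77 for Atxn7l1 and 0.61 for Wdr45. For regulatory features it was 2.16 for ENSMUSR00000267905, 1.29 for ENSMUSR00000302654, 1.08 for ENSMUSR00000326129, 0.98 for ENSMUSR00000612323, 0.88 for ENSMUSR00000713926, 0.84 for ENSMUSR00000623273 and 0.77 for ENSMUSR00000706649.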

How the results depend on the processing

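With each cell line as 1 replicate, edgeR called 469 genes (92.1% higher), 318 promoters, 758 promoter flanking regions, 482 enhancers, 493 CTCF sites, 74 transcription factor binding sites and 280 open chromatin regions in the mean of the clones, from fewer samples. With a log2 change over 1, by construction fewer, it called 202 and 61 protein-coding genes higher and lower in every clone, 1685 genes, 13 lower PROMPT regions, 531 promoters, 1443 promoter flanking regions, 832 enhancers, 812 CTCF sites, 170 transcription factor binding sites and 466 open chromatin regions. Lower PROMPT regions numbered 2303 when scaled within their table. Rbm7 turned to 0.00547 without TMM factors and to 0.0041 with factors from protein-coding genes; the cause was not tested.

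Leaving out each library in turn gave 913 to 1011 protein-coding genes higher and 1393 to 1648 lower in every clone, 6818 to 7734 genes, 5210 to 5616 higher and 258 to 313 lower PROMPT regions, 1048 to 1282 promoters, 2513 to 3272 promoter flanking regions, 1233 to 1691 enhancers, 1095 to 1470 CTCF sites, 230 to 318 transcription factor binding sites and 597 to 870 open chromatin regions. The PROMPT to gene difference was 1.85 to 1.87 in clone 1, 1.61 to 1.63 in clone 2 and 1.64 to 1.68 in clone 3 on the log2 scale, each at an exact permutation p of 0.0571, the smallest that 3 against 4 allows.

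Replicate numbers did not pair libraries, since 2 of 24 correlations exceeded 0.1 (range -0.207 to 0.181). With the replicate block the counts were 945 higher and 1675 lower protein-coding genes, and the PROMPT to gene differences 1.86, 1.62 and 1.66, at an exact p of 0.125, the smallest that sign changes of 4 pairs allow. Over all alternatives run, 284 such counts and ratios kept their direction and their size or side of the threshold, 18 counts moved by over 1.5 times and 27 ratios kept their direction but not their call.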
